A study of Mus musculus with 25 samples.

Results

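Car3 and 9 other carbonic anhydrase genes were followed in perigonadal white adipose tissue (pgWAT) of mice lacking ChREBPβ alone or both ChREBP isoforms. The members were Car2, Car3, Car4, Car5a, Car5b, Car6, Car7, Car8, Car13 and Car14, found by the gene name that the array design gives each probe. They made up 10 of the 16 carbonic anhydrase genes named on the array. The 10 genes had 15 probes on the array, and 13 of these were among the 40561 probes with deposited normalised values, so every gene had at least 1 value. The list was led by Car3, which was chosen by its deposited normalised intensities, for knockout differences that differed between the lines and for probes that disagree. Its values are therefore given as a description, with no test. The other 9 genes were tested.

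Labelled RNA was hybridised to 25 one-colour arrays of male C57BL6/J mice. The ChREBPβ line gave 7 WT and 6 KO arrays, and the total ChREBP line gave 7 WT and 5 KO arrays. ChREBPβ KO mice carried a germline deletion of the ChREBPβ-specific exon of Mlxipl made with CRISPR/Cas9, and total ChREBP KO mice were Mlxipl-null. Each KO was set against the WT mice that the labels give to its own line. The methods call the WT mice of the ChREBPβ line littermates, and whether those of the total ChREBP line were is not given in the sources used here. All mice, WT included, had been fasted for 24 h and then refed for 18 h with food and water containing 20% glucose, and their age was not given in the sources used here. Both deletions were present in every tissue, so effects that arise in fat and effects that arise elsewhere in the animal cannot be told apart.

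Carbonic anhydrases interconvert carbon dioxide and bicarbonate and so set the supply of bicarbonate and protons in and around the cell. The family is sorted by place: Car2, Car3, Car7 and Car13 are cytosolic, Car5a and Car5b are mitochondrial, Car4 and Car14 sit in the plasma membrane, Car6 is secreted, and Car8 is a relative without catalytic activity. Car3 has low hydratase activity and is known as an abundant protein of adipocytes, skeletal muscle and liver. Bicarbonate is the carbon donor of acetyl-CoA carboxylase and pyruvate carboxylase, and the first of these opens fatty acid synthesis, a pathway driven by ChREBP in refed fat.

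The gene that encodes ChREBP served as a check on the labels. Its probe with the highest signal (Mlxipl A_55_P2119957) read 15.74 to 16.24 on the log2 scale in total ChREBP WT and 14.07 to 14.29 in the KO, a difference of -1.77 (SE 0.14, limma adjusted p = 1.11e-08). In ChREBPβ KO it read 14.02 to 14.64 against 14.72 to 15.46 in ChREBPβ WT, a difference of -0.74 that did not pass (limma adjusted p = 0.116). Of the other Mlxipl probes, A_55_P2728555 also fell in total ChREBP KO (-0.66) and A_55_P2045158 did not pass in either KO (0.08 in total ChREBP KO and -0.06 in ChREBPβ KO), and where these probes lie relative to the deletions was not established. The 10 adipocyte markers averaged 16.0005 to 16.42 on every array. Liver markers were uneven: the mean of 10 liver genes (Alb, Apoa1, Ttr and others) was 11.66 to 15.53 in WT and 10.21 to 14.92 in KO mice of the ChREBPβ line, and 6.99 to 12.56 in WT and 6.52 to 7.63 in KO mice of the total ChREBP line. Each of the 4 wash batches held all 4 groups.

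None of the 9 tested genes passed the test in ChREBPβ KO, and 2 of them, Car5b and Car6, fell in total ChREBP KO. In ChREBPβ KO no probe of these genes passed even at an unadjusted p under 0.05, and the share of all genes called was 0%, with 0 of the 40561 probes passing in limma and 3659 probes at an unadjusted p under 0.05. KO and WT arrays overlapped for every member, where 0.069% of all probes had groups that did not overlap. The largest of the differences that did not pass was that of Car5a, at -1.19 (SE 0.62, limma adjusted p = 0.597), and the median over the 9 genes' 10 probes was -0.21, beside 0.02 over all probes. In total ChREBP KO 2 of 9 genes were called, both lower, where 10.8% of all genes had at least 1 called probe and 4.11% a lower one, and 4 genes passed at an unadjusted p under 0.05. The study's filter also kept probes detected in only 1 group. Car6, well above background on 20 of the 25 arrays, could pass it only through the groups where it was high. With no filter on dim probes Car5b and Car6 were called as well. The median over their probes was -0.34, beside 0.02 over all probes. A test of the difference between the knockout effects called 1 of the 9, Car6, with a value below 0, where 4.01% of all genes were called and 2.34% with a value below 0.

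**Figure D1:**
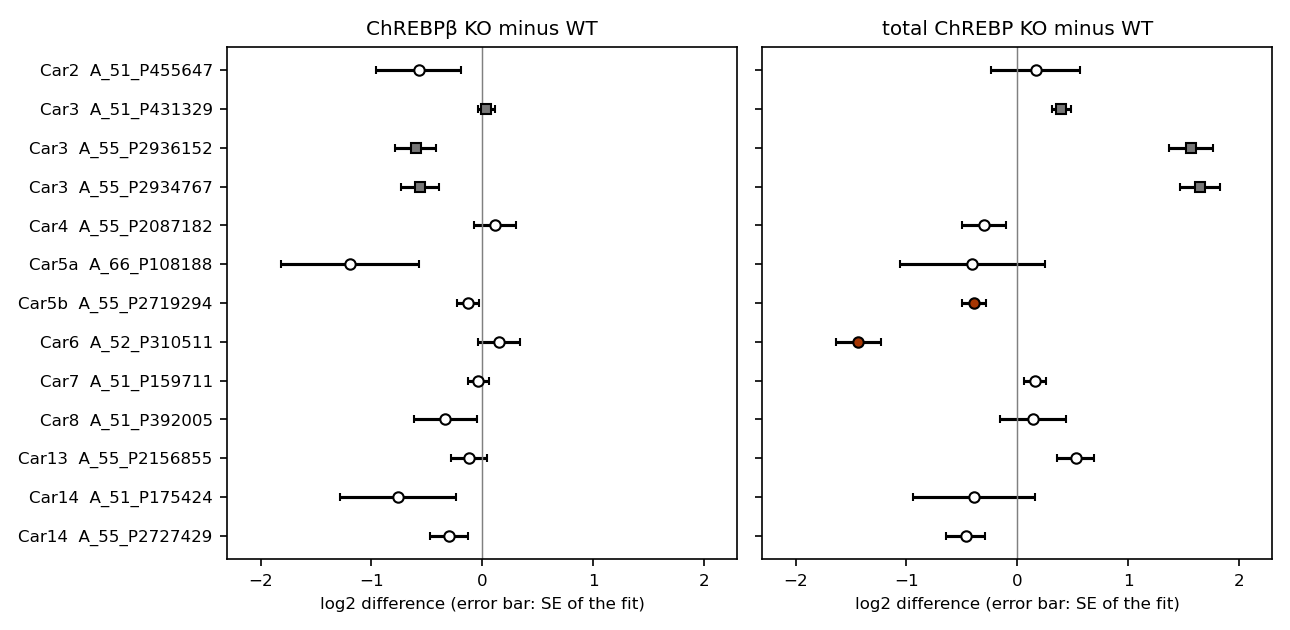
Log2 difference of KO from WT (x axis) for each of the 13 member probes with normalised values (y axis, gene and probe), in the ChREBPβ line (left) and the total ChREBP line (right). Points are differences of the limma fit and bars their SE; filled circles mark an adjusted p under 0.05, open circles a p that did not pass, and grey squares Car3, which was not tested. Car6 and Car5b are the filled circles, at -1.43 and -0.39 in total ChREBP KO, and the 3 Car3 squares lie between 0.40 and 1.65 in the same panel.

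Car3 was read by 3 probes, each well above background on all 25 arrays. One probe (A_51_P431329, chr3:14871781-14871840 on mm9, plus strand) was designed on the RefSeq transcript NM_007606. The others, A_55_P2936152 (chr3:14865173-14865232) and A_55_P2934767 (chr3:14865478-14865537), were designed on the Ensembl transcript ENSMUST00000195575 and lie 6.61 and 6.30 kb upstream of it. No run of 16 bases in these 3 probes was shared with a probe of another gene on the array, on either strand. Whether each lies in an exon, intron or UTR was not determined, because no mm9 annotation was used here. The first 30 of the 60 bases of each probe are shown because the Car3 result depends on which probe is read:
A_51_P431329: acatgcaaccgcagtgccttttgacatgat
A_55_P2936152: acctttgagtttctaatgtgttccaagcca
A_55_P2934767: gctatcgttacatgttaccctttcccagtt

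Every Car3 probe was highest in total ChREBP KO. On A_55_P2934767 the 5 total ChREBP KO arrays read 14.39, 15.07, 14.49, 14.77 and 14.55 on the log2 scale. Total ChREBP WT on that probe ran from 12.53 through a median of 13.05 to 13.28. ChREBPβ WT ran from 13.13 through 13.57 to 14.06, and ChREBPβ KO from 12.42 through 13.05 to 13.74. All 5 total ChREBP KO arrays thus lay above every array of the other 3 groups, which overlapped each other. KO and WT arrays of the total ChREBP line did not overlap for 6.8% of all probes. On A_55_P2936152 the 5 total ChREBP KO arrays read 15.03, 15.66, 15.13, 15.34 and 15.02. Total ChREBP WT there ran from 13.18 through 13.69 to 14.14, ChREBPβ WT from 13.65 through 14.17 to 14.95, and ChREBPβ KO from 13.04 through 13.74 to 14.36. The order was the same as on its neighbour probe, with total ChREBP KO highest, then ChREBPβ WT, then ChREBPβ KO and total ChREBP WT, whose means (13.78 ± 0.48, SD, n = 6, and 13.62 ± 0.34, SD, n = 7) were closer than their spread.

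The NM_007606 probe kept the top group and lost most of the distance. Its 5 total ChREBP KO arrays read 18.32, 18.42, 18.37, 18.38 and 18.29, still above all other arrays. Total ChREBP WT ran from 17.60 through 18.02 to 18.17, ChREBPβ WT from 17.91 through 18.10 to 18.23, and ChREBPβ KO from 18.01 through 18.11 to 18.18, and these 3 groups overlapped. No spot on any array was flagged as saturated, and the raw median intensity of this probe was 224758 to 376980. By mean signal it ranked 29 among the 40561 probes, and whether differences shrink at this brightness was not tested. Before normalisation the total ChREBP groups overlapped on it, with 317355 in WT replicate 5 and 303501 in KO replicate 7.

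The size of the Car3 difference therefore depended on the probe. In total ChREBP KO against its WT, Car3 was 3.14-fold higher on A_55_P2934767 (log2 difference 1.65, SE 0.18), 2.96-fold higher on A_55_P2936152 (1.57, SE 0.20) and 1.32-fold higher on A_51_P431329 (0.40, SE 0.08). In ChREBPβ KO the ENSMUST00000195575 probes stood lower than in WT, by -0.56 (SE 0.17) and -0.60 (SE 0.19), with 4 and 3 of the 6 KO arrays below all 7 WT arrays. The NM_007606 probe differed by 0.04 (SE 0.08) there, and its groups overlapped. The total ChREBP effect minus the ChREBPβ effect was 2.21, 2.17 and 0.36 on the 3 probes in the order given. Within each of the 4 wash batches the total ChREBP difference had the same sign on every probe, from 1.35 to 2.04, from 1.25 to 2.01 and from 0.27 to 0.51. In ChREBPβ KO the within-batch differences stayed below 0 on the ENSMUST00000195575 probes (-0.94 to -0.20 and -0.86 to -0.29) and ran from -0.02 to 0.14 on the NM_007606 probe.

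**Figure D2:**
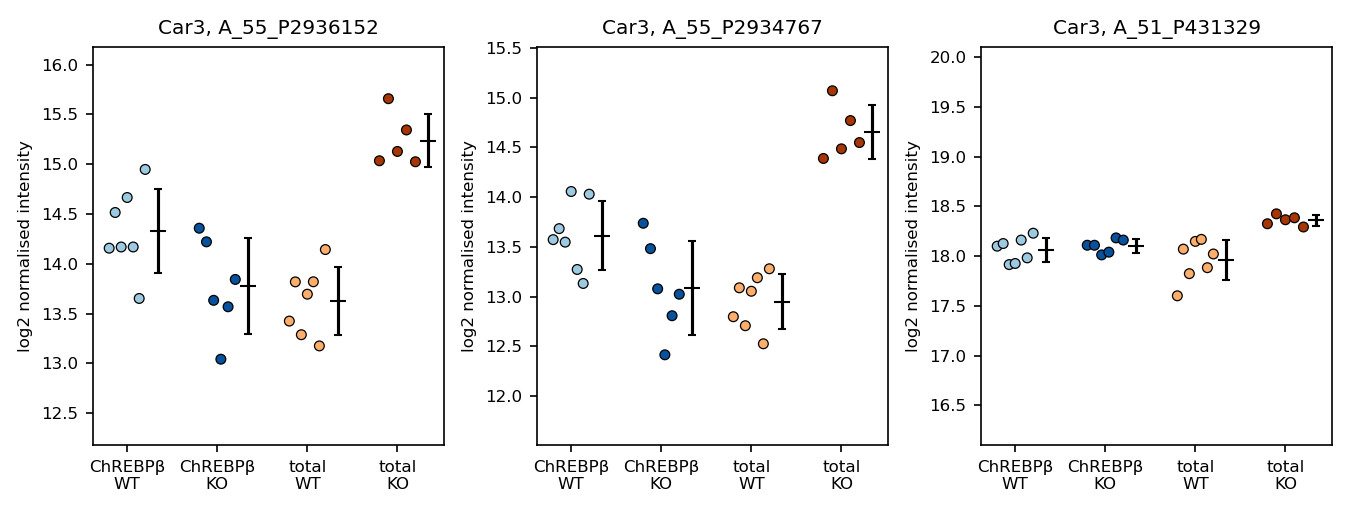
Log2 normalised intensity (y axis) of the 3 Car3 probes on each array, by group (x axis; "total" stands for total ChREBP); every panel spans 4 log2 units. Dots are arrays, and the dash with bars is the group mean and SD (7, 6, 7 and 5 arrays). The 5 total ChREBP KO arrays lie above all others in each panel, at 15.02 to 15.66, 14.39 to 15.07 and 18.29 to 18.42.

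The ENSMUST00000195575 probes moved together and apart from the NM_007606 probe. Their distance from each other was 0.71 (WT) and 0.69 (KO) log2 units in the ChREBPβ line and 0.67 (WT) and 0.59 (KO) in the total ChREBP line. The NM_007606 probe stood above A_55_P2934767 by 4.45, 5.01, 5.01 and 3.71 in the same order, so that the ratio between the probes was not constant over the groups. The wild types also differed in this respect, since total ChREBP WT read lower than ChREBPβ WT by -0.66 and -0.70 on the ENSMUST00000195575 probes and by -0.10 on the NM_007606 probe.

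Markers of cell types that make Car3 were set beside these values. The adipocyte list averaged 16.34 to 16.38 in total ChREBP KO and 16.0005 to 16.31 in its WT, groups that did not overlap. It averaged 16.12 to 16.42 in ChREBPβ KO and 16.01 to 16.28 in its WT, groups that overlapped. In that KO the ENSMUST00000195575 probes stood lower than in WT. The part of the adipocyte list in the Car3 differences was not tested. In bulk tissue a change in the number of such cells and a change in RNA per cell cannot be told apart. The skeletal muscle list averaged 7.21 to 8.23 in total ChREBP KO and 7.203 to 8.51 in its WT, groups that overlapped. Of its 10 genes 7 had normalised values. Ckm, a defining muscle gene, was well above background on 2 of 5 of these KO and 3 of 7 of these WT arrays. Every other gene of the list was well above background on all arrays of the total ChREBP line. With the liver list mean added to the fit, the total ChREBP difference was 1.51, 1.39 and 0.32 on A_55_P2934767, A_55_P2936152 and A_51_P431329, and the ChREBPβ difference was -0.64, -0.70 and -0.01.

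By the root mean square difference of centred log2 values over the 25 arrays, the genes closest to Car3 probe A_55_P2934767 were Pde4dip (0.34), a cAMP phosphodiesterase anchor, Adrb3 (0.42), the β3-adrenergic receptor of adipocytes, and a lincRNA that the array names by its coordinates (A_30_P01026385, 0.42). The Car3 probe itself had an SD of 0.72 over these arrays. Pde4dip averaged 11.68 ± 0.16 in total ChREBP KO and 10.57 ± 0.27 in its WT, and Adrb3 averaged 11.97 ± 0.25 and 10.90 ± 0.10 (SD). These genes were picked for closeness to a Car3 probe, and Car3 for its knockout differences. Their higher values in total ChREBP KO follow from that choice and are no test.

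Car3 lies in a stretch of chromosome 3 that also holds Car13, Car1 and Car2. Car13, a cytosolic enzyme, has its probe (A_55_P2156855, chr3:14662332-14662391, plus strand) 209 kb from the NM_007606 probe of Car3. Its 5 total ChREBP KO arrays read 11.36, 11.14, 11.54, 11.25 and 10.92, above all 7 total ChREBP WT arrays, which ran from 10.48 through 10.73 to 10.88. The difference of 0.53 (SE 0.17) did not pass (limma adjusted p = 0.0547), and it passed under 5 of the 11 other settings tried, with adjusted p from 0.00577 to 0.0772. In ChREBPβ KO Car13 differed by -0.12 (SE 0.16, limma adjusted p = 0.892), and the difference between the knockout effects was 0.65 (SE 0.23, limma adjusted p = 0.169).

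Car1, the erythrocyte enzyme and no member, was read by a pair of probes about 104 and 102 kb from that Car3 probe. Both rose in total ChREBP KO, by 0.42 (SE 0.09, limma adjusted p = 0.00336) and 0.55 (SE 0.13, limma adjusted p = 0.0113), and on both all 5 KO arrays lay above all 7 WT arrays. The difference between the knockout effects was 0.47 (limma adjusted p = 0.0385) and 0.80 (limma adjusted p = 0.0155). The first of these was lost when any of 16 single arrays was left out, with adjusted p of up to 0.0914. The erythroid list averaged 12.56 to 12.83 in total ChREBP KO and 12.24 to 13.03 in total ChREBP WT, which overlapped, and its part in the Car1 values was not tested.

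Car2, the high-activity cytosolic enzyme, has its probe (A_51_P455647, chr3:14900206-14900265) 28.4 kb on the other side of Car3. It varied more between arrays than between groups. ChREBPβ WT arrays read 9.29, 9.34 and 9.72 in replicates 1, 2 and 3 and 7.31 to 7.78 in the other four, and total ChREBP KO ran from 8.45 to 9.24. No comparison passed, with differences of -0.58 (SE 0.38) in ChREBPβ KO and 0.17 (SE 0.40) in total ChREBP KO. The kidney tubule list, of which 6 of 10 genes had normalised values, averaged 11.41, 8.08 and 11.53 in those 3 ChREBPβ WT arrays and 6.23 to 10.04 in the others, and its part in the Car2 values was not tested.

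**Figure D3:**
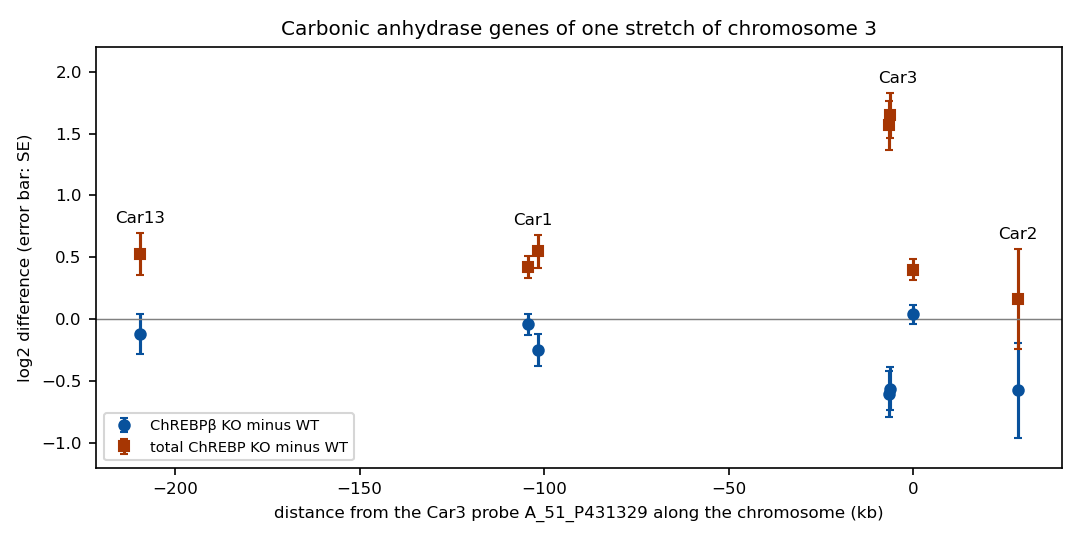
Log2 difference of KO from WT (y axis, limma fit, bars are SE) for every probe of Car13, Car1, Car3 and Car2 with normalised values, against its distance in kb along chromosome 3 from the NM_007606 probe of Car3 (x axis). Squares are the total ChREBP line and circles the ChREBPβ line. All 7 squares lie above 0, from 0.17 for Car2 to 1.65 for Car3, and the circles lie between -0.60 and 0.04. The Car3 squares belong to a gene chosen for its knockout differences and are no test, and those of Car2 and Car13 did not pass. The median over all probes in total ChREBP KO was 0.02.

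Car7, a cytosolic enzyme best known from nervous tissue, passed in no comparison as fitted, and between the wild types it passed under 2 other settings and without any of 3 single arrays. Its probe (A_51_P159711, chr8:107072897-107072956) averaged 9.52 ± 0.21 in WT and 9.48 ± 0.10 in KO mice of the ChREBPβ line, and 9.28 ± 0.06 in WT and 9.43 ± 0.24 in KO mice of the total ChREBP line (SD). The groups overlapped in each comparison.

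Car6, the secreted carbonic anhydrase known from saliva and milk, was the member with the clearest loss in total ChREBP KO. Its probe (A_52_P310511, chr4:149561287-149561346 on mm9, minus strand) read 4.45, 4.60, 4.54, 4.39 and 4.50 on the 5 total ChREBP KO arrays, and on none of them was it well above background. Total ChREBP WT ran from 5.35 through 5.85 to 6.85, ChREBPβ WT from 5.28 through 5.67 to 6.07, and ChREBPβ KO from 5.56 through 5.84 to 6.25, each well above background on every array. Every total ChREBP KO array lay below every array of the other 3 groups. Because the KO signal was only a bound, Car6 in the deposited values was at least 2.47-fold lower in total ChREBP KO than in its WT (measured means 4.49 and 5.90, limma adjusted p = 3.85e-05). This bound does not carry over to other treatments of background. In that bound each KO array stands at the higher of its own value and the lowest signal that any probe had well above background on it. ChREBPβ KO differed from its WT by 0.15 (SE 0.19, limma adjusted p = 0.885), and the knockout effects differed from each other by -1.58 (SE 0.27, limma adjusted p = 0.00107).

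The signal of Car6 was low, and the fitted size of the fall followed the treatment of background. It was -1.43 (SE 0.20) in the deposited values, -0.73 after normexp background correction and -3.43 on the background-subtracted processed signal, with limma adjusted p of 2.41e-04 after normexp and 2.07e-07 on the processed signal. It was called in every fit that kept the probe, and within the 4 wash batches it ran from -1.74 to -0.88. Total ChREBP WT replicate 2, the highest Car6 array, also had the highest mean of the epididymis and vas deferens list (8.67 against 6.59 to 7.49 in the other total ChREBP WT arrays). Of the 10 genes on that list 4 had normalised values. Adam7 averaged 8.99 in total ChREBP WT and 5.94 in its KO. Adam28, Lcn9 and Rnase10 had slightly lower means in that WT than in its KO. The part of epididymis and vas deferens RNA in the Car6 values was not tested. With any single array left out the difference ran from -1.50 to -1.27.

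The stretch just before the Car6 gene is shown because it holds CACGTG, the core letters of the element that ChREBP binds. The 250 bases before its start in RefSeq (GRCm38.p6, chr4:150201136-150201385, minus strand) read, with that motif in capitals:
Car6: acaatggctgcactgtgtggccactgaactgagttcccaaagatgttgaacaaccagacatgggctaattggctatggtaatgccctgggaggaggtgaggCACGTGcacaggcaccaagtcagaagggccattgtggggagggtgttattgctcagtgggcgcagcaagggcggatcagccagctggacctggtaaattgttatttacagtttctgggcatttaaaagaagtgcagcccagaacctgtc
The motif is the same on both strands and begins 149 bases before the start. It was found in 1 of 8 such stretches from 6 members, that of Car6, and in 6.02% of the 32851 stretches of this length in the table. No stretch was available for Car2, Car3, Car8 and Car13, so these were not searched. Only the core letters were searched for, not the full element. A match is a description and not a site.

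Genes on both sides of the Car6 probe on mm9 also fell in total ChREBP KO. Slc2a5, the fructose transporter, had its probe 43.5 kb away and averaged 12.37 ± 0.36 in total ChREBP WT and 5.67 ± 1.09 in KO (SD), a difference of -6.74 (SE 0.38, limma adjusted p = 1.13e-10). Eno1, a glycolytic enolase, lay 56.9 and 61.6 kb away on the other side and differed by -1.87 and -1.37 on its probes (limma adjusted p = 2.8e-09 and 1.48e-10). Gpr157, 81.6 kb away, differed by -0.07 (SE 0.14, limma adjusted p = 0.865), and H6pd, 208 kb away, by -0.23 (SE 0.10, limma adjusted p = 0.17). These neighbours were named after their values were seen, and 4.11% of all genes had a lower called probe in this comparison. A shared effect of the stretch was not tested.

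Car5b, the mitochondrial enzyme found in many tissues, fell in total ChREBP KO by a small amount. Its probe (A_55_P2719294, chrX:160449906-160449965, minus strand) read 10.65, 10.94, 10.68, 10.89 and 10.69 on the KO arrays, all below the 7 total ChREBP WT arrays, which ran from 11.01 through 11.14 to 11.40. The probe shares a run of 16 bases, on either strand, with 1 probe of another gene name on the array. Whether that transcript adds to its signal was not tested. The difference was -0.39 on the log2 scale (SE 0.11, limma adjusted p = 0.0223), that is 1.31-fold. It was -0.33, -0.39 or -0.36 and did not pass (limma adjusted p = 0.103, 0.054 and 0.0737) when total ChREBP KO replicate 1, 3 or 7 was left out. ChREBPβ KO differed by -0.13 (SE 0.10, limma adjusted p = 0.764), and the knockout effects did not pass as different (-0.26, SE 0.15, limma adjusted p = 0.508).

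**Figure D4:**
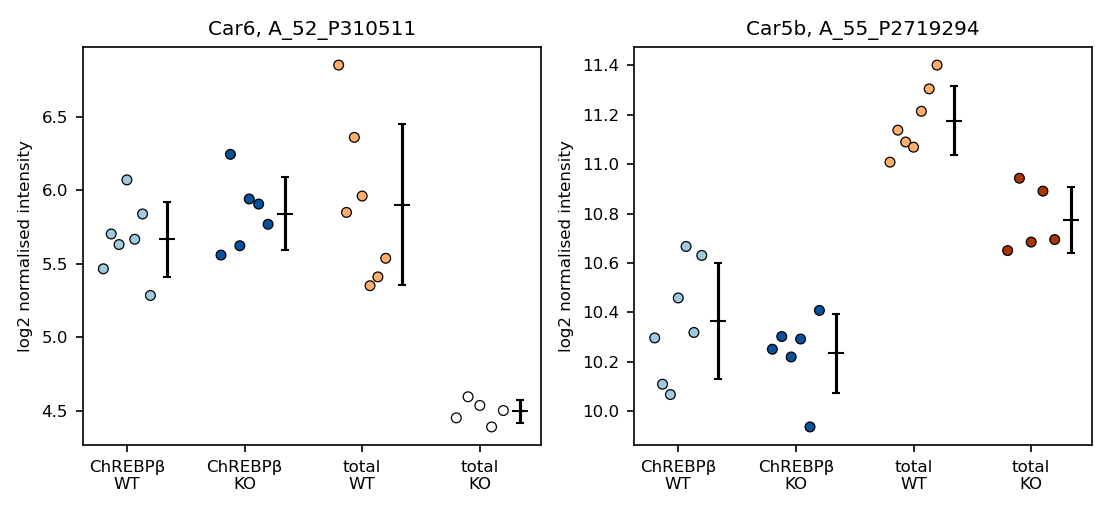
Log2 normalised intensity (y axis) of the Car6 and Car5b probes on each array by group (x axis; "total" stands for total ChREBP). Filled dots are well above background and open dots are not, and the dash with bars is the group mean and SD (7, 6, 7 and 5 arrays). The 5 open Car6 dots of total ChREBP KO lie at 4.39 to 4.60, below all other arrays, and the Car5b dots of total ChREBP WT lie above those of every other group.

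More members were called between the wild types of the lines than in either knockout. With total ChREBP WT set against ChREBPβ WT, 5 of the 9 tested genes were called, 2 higher (Car5b and Car13) and 3 lower (Car5a, Car8 and Car14). Like Car6, Car5a could pass the study's filter only through the groups where it was high. It was well above background on 15 of the 25 arrays, most of them of the ChREBPβ line. With no filter on dim probes the same 5 genes were called. In this comparison 27% of all genes had at least 1 called probe, 17.7% a higher and 9.53% a lower one, and 5.06% of all probes had groups that did not overlap. Car5b was higher by 0.81 (SE 0.10, limma adjusted p = 1.19e-05), with all 7 arrays above all 7, and Car13 by 0.65 (SE 0.15, limma adjusted p = 0.0039), also without overlap. Each WT group belongs to 1 line, so line and any other difference between these groups cannot be told apart.

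Car5a, the mitochondrial enzyme of hepatocytes, was readily measured in the ChREBPβ line and barely in the other. Its probe (A_66_P108188, chr8:124440230-124440289, minus strand) ran from 6.27 through 8.67 to 10.17 in ChREBPβ WT and from 5.24 through 6.98 to 9.46 in ChREBPβ KO. In total ChREBP WT it ran from 4.13 through 4.48 to 6.04 and was well above background on 2 of 7 arrays, and in total ChREBP KO it read 4.45, 4.31, 4.49, 4.04 and 4.13, not well above background on any of the 5. The wild types did not overlap and stood -3.74 apart in the fit (SE 0.59, limma adjusted p = 1.79e-04). With most total ChREBP WT arrays not well above background its size was not measured, and it ran from -2.62 after normexp to -6.01 on the processed signal. The array with the highest Car5a value, ChREBPβ WT replicate 3, had the highest liver list mean of all (15.53), and the lowest Car5a value of the ChREBPβ line, in ChREBPβ KO replicate 3, had the lowest liver list mean of that line (10.21). The 2 total ChREBP WT arrays with Car5a above background, replicates 2 and 6, had the highest liver list means of their group (12.56 and 10.72).

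Car8 and 1 of the Car14 probes were also lower in total ChREBP WT. Car8 (A_51_P392005, chr4:8070545-8070604, minus strand, which also shares a run of 16 bases with 1 probe of another gene name) averaged 6.42 ± 0.75 in WT and 6.10 ± 0.70 in KO mice of the ChREBPβ line and 4.92 ± 0.24 in WT and 5.06 ± 0.15 in KO mice of the total ChREBP line (SD), and the wild types differed by -1.50 (SE 0.27, limma adjusted p = 5.63e-04) without overlap. The other Car8 probe (A_66_P126640) had raw values only, 18 to 44.5, and was well above background on 4 ChREBPβ WT and 2 ChREBPβ KO arrays and on none of the total ChREBP line. Car14, a membrane enzyme with its active site outside the cell, was read by probes that disagreed. A_51_P175424 (chr3:95701859-95701918, minus strand) averaged 8.58 ± 1.19 in ChREBPβ WT and 6.70 ± 0.73 in total ChREBP WT (SD), a difference of -1.88 (SE 0.50, limma adjusted p = 0.0097). On this probe the wild types overlapped, and within the wash batches the difference ran from -3.61 to 0.51, with 1 batch above 0. Beside the liver list this probe was mixed. Total ChREBP WT replicate 8 had the lowest liver list mean of its group (6.99) and read 7.69, and ChREBPβ WT replicate 8 read the lowest of its group (6.69) at a liver list mean of 12.92. But ChREBPβ WT replicate 3, with the highest liver list mean (15.53), read 10.28. ChREBPβ KO replicate 3, with the lowest liver list mean of its line (10.21), read 6.21. The other normalised Car14 probe, A_55_P2727429 (chr3:95708252-95708311), differed by -0.18 (SE 0.16, limma adjusted p = 0.47). The remaining Car14 probe (A_55_P2595387) was well above background on no array.

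Between total ChREBP KO and its WT neither Car14 probe passed. On A_55_P2727429 the total ChREBP KO arrays read 5.24, 5.11, 5.18, 5.22 and 5.19, all below the 7 WT arrays at 5.44 to 6.09, but the difference of -0.46 (SE 0.18) did not pass (limma adjusted p = 0.122). On A_51_P175424 the groups overlapped and the difference was -0.39 (SE 0.55, limma adjusted p = 0.789).

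With the liver list mean added to the fit, a setting chosen after seeing the data, none of these 3 genes was called between the wild types. Car5a differed by -0.66 (limma adjusted p = 0.442), Car8 by -0.49 (limma adjusted p = 0.45) and the brighter Car14 probe by -0.22 (limma adjusted p = 0.888). Car5b was still called, at 0.70 (limma adjusted p = 0.0108), and Car13 at 0.82 was not (limma adjusted p = 0.052). The liver list mean itself differed between the lines, so that this fit takes from the line what it gives to the list. All 10 liver genes had normalised values, and Fga, a liver fibrinogen chain, was well above background on 7 of 7, 6 of 6, 5 of 7 and 0 of 5 arrays of ChREBPβ WT and KO and total ChREBP WT and KO. Fga was the only liver gene with 0 there. In total ChREBP KO, Fgb and Cps1 were well above background on 4 of 5 arrays and the rest of the list on 5 of 5. The part of liver RNA in these values was not tested.

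**Figure D5:**
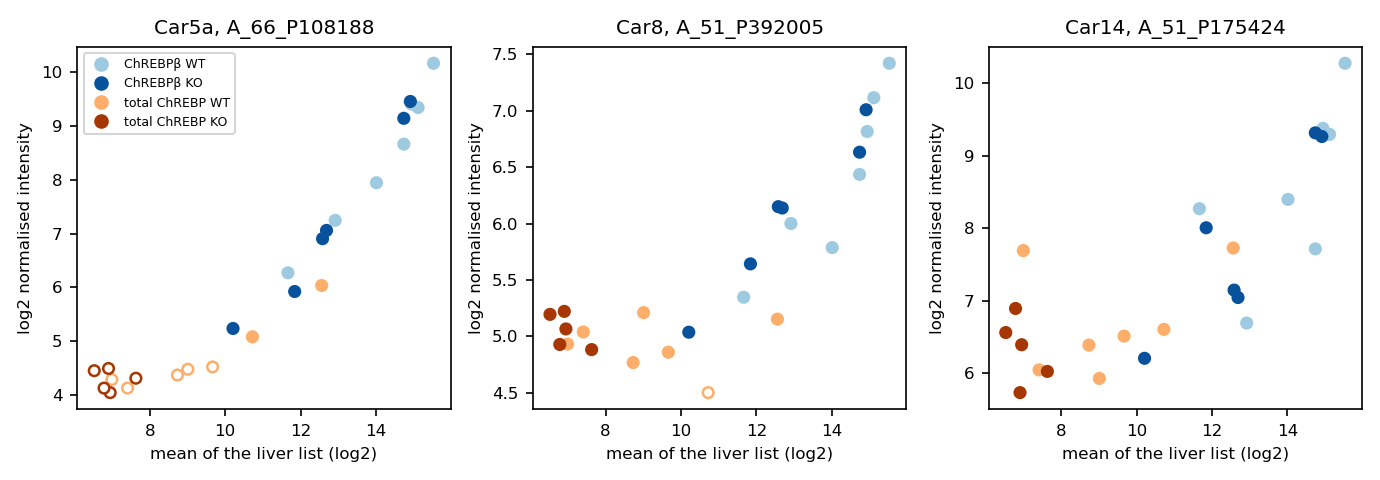
Log2 normalised intensity of Car5a, Car8 and the brighter Car14 probe (y axis, 1 panel each) against the mean log2 value of 10 liver marker genes (x axis) on each of the 25 arrays, coloured by group; open dots are not well above background. Car5a lies at 4.04 to 4.52 on the arrays where it was not above background and reaches 10.17 on the array with the highest liver mean, 15.53.

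Car4, the membrane-anchored enzyme of capillaries and epithelia, did not pass in any comparison as fitted. Its probe (A_55_P2087182, chr11:84777667-84777726) averaged 9.44 ± 0.40 in WT and 9.56 ± 0.37 in KO mice of the ChREBPβ line, and 9.91 ± 0.26 in WT and 9.60 ± 0.27 in KO mice of the total ChREBP line (SD). The nearest to the threshold was total ChREBP WT against ChREBPβ WT, at 0.47 (SE 0.18, limma adjusted p = 0.0664), a difference that did pass under 2 other settings and without any of 3 single arrays.

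Among genes that handle bicarbonate and protons, those that consume bicarbonate showed most of the calls in total ChREBP KO. The list of bicarbonate-using enzymes held carboxylases and the carbamoyl-phosphate synthetases Cad and Cps1. Of its 9 genes 5 were called, 2 higher and 3 lower, where 9.25% of all genes were called by their brightest probe, 5.61% higher and 3.63% lower. The 3 that fell were Acaca (-1.86, SE 0.09, limma adjusted p = 2.75e-11) and Acacb (-1.26, SE 0.15), the acetyl-CoA carboxylases, and Pcx, pyruvate carboxylase (-0.77, SE 0.09). The median of the list was -0.37, beside 0.02 over all genes. Of 11 bicarbonate transporters 1 was called, Slc4a4, a sodium bicarbonate cotransporter, which rose by 0.89 (SE 0.24, limma adjusted p = 0.019). Without total ChREBP KO replicate 1 it differed by 0.80 and did not pass (limma adjusted p = 0.0796). Of 10 genes of lactate and proton export 2 fell, Slc9a5, a sodium proton exchanger (-1.36, SE 0.08), and Slc16a1, the lactate carrier MCT1 (-0.61, SE 0.12). Of the 6 other carbonic anhydrases Car1 alone was called.

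The knockout effects differed for 5 of the 9 bicarbonate-using enzymes, 2 with a value above 0 and 3 below, for 1 of 11 bicarbonate transporters, 1 of 10 genes of lactate and proton export and 1 of 6 other carbonic anhydrases, where 3.47% of all genes were called. Among these were Slc4a4 (1.48, SE 0.32, limma adjusted p = 0.01), Acaca (-1.77, SE 0.13), Acacb (-0.94, SE 0.21), Pcx (-0.67, SE 0.12) and Slc9a5 (-1.19, SE 0.12), beside Car1, given above. In ChREBPβ KO none of the genes on these 4 lists was called, where 0% of all genes were called. Between the wild types the list of bicarbonate-using enzymes had 6 of 9 called, 5 higher and 1 lower, where 22% of all genes were called, 13.5% higher and 8.51% lower, and the lower one was Cps1 (-4.19, SE 0.76), a liver gene that is also on the liver list. Acacb (0.87, SE 0.14), Acaca (0.70, SE 0.09), Slc9a5 (0.86, SE 0.08), Slc16a1 (0.42, SE 0.11) and the anion exchanger Slc26a6 (0.40, SE 0.09) were higher in total ChREBP WT, and Car12 (-1.13, SE 0.39) and Car15 (-0.68, SE 0.23) were lower. The Car12 call was lost in 17 and the Car15 call in 13 of 25 fits without 1 array, with adjusted p of up to 0.111 and 0.0995, and without ChREBPβ WT replicate 3 Car15 differed by -0.45. With the liver list mean in the fit Car12, Car15, Slc16a1 and Slc26a6 did not pass (limma adjusted p = 0.372, 0.254, 0.397 and 0.245).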

How the data were processed

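The arrays were Agilent one-colour 60-base oligonucleotide arrays of pgWAT RNA labelled with Cy3. According to the labels and the study's methods, the authors read the scans with Agilent Feature Extraction 10.10.1.1, took the median intensity of each spot without background subtraction, kept spots by the scanner's detection flags, imported the values with limma, quantile normalised them with preprocessCore and deposited log2 values for 40561 probes. The deposited intensity columns of the scanner files were used for raw values, for background flags and for alternatives. Column medians of the deposited log2 values were 7.957 to 7.962, and their lowest correlation with the log2 raw medians was 0.99982. Raw array medians were 84 to 127 over a local background of 15 to 22, with the well-above-background flag set for 73% to 77.9% of spots. The number of arrays limits the precision.

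The main fit was limma 3.58.1 in R 4.3.3 on all 25 arrays with group and wash batch as terms, Benjamini-Hochberg adjustment over 40561 probes, and a call at an adjusted p under 0.05. A gene was called where at least 1 of its probes was. Each array is a separate labelled sample of its group. Named genes were all members by every probe, up to 3 called genes of each related list per comparison, and the 3 genes nearest to Car3 in profile. Genes of the related lists and markers were taken by their brightest probe. Slc2a5, Eno1, Gpr157, H6pd and Ckm were named after their values were seen. The members and lists were chosen with earlier results of these data known. Alternatives were values rebuilt from the scanner files, the background-subtracted processed signal with each array's 75th percentile as scale, normexp with an offset of 50, a stricter filter and none, no wash batch, slide as a random block, a replicate block, each line on its own, array weights, each array left out and, added later, the liver list mean as a covariate. Replicate numbers showed no pairing of the samples over all probes: in 1 of 9 pairs the residual correlation was over 0.1. Probe positions are those of the array design on mm9, and promoter stretches are from RefSeq on GRCm38.p6.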

Additional observations from a re-analysis of the deposited data

Results flagged for a closer look

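Of 52 sets of values (13 member probes in 4 groups), 2 had an array set apart from the rest of its group by Dixon's gap criterion, which chance alone meets in about 1 set in 20. Car2 read 8.95 in ChREBPβ KO replicate 4, where the next highest array of the group read 7.83. Car4 read 10.25 in ChREBPβ KO replicate 2, where the next read 9.59.

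The knockout effects on Car6 differed between the lines by -1.58 on the log2 scale (limma adjusted p = 0.00107), with total ChREBP KO not above background.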

How the results depend on the processing

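In ChREBPβ KO no tested member was called under any setting or without any single array. In total ChREBP KO the 2 calls became 4 on the processed signal and with each line fitted on its own, in both cases with Car13 and Car14 added, and 1 (Car6) with a replicate block as a fixed term, since the block removed Car5b (-0.32, limma adjusted p = 0.152). They ran from 1 to 3 when single arrays were left out, and 1 was left without total ChREBP KO replicate 1, 3 or 7. With the stricter filter, which drops Car5a, Car6 and Car8, the calls were Car5b and Car13. The count for the difference between the knockout effects was 0 with the stricter filter, where Car6 is not tested, and 1 to 2 without single arrays, the higher being without ChREBPβ KO replicate 4, when Car13 (0.78) was called too. Between the wild types the count was 3 with the stricter filter and 1 with the liver list mean as a covariate, and 5 to 7 without single arrays, and it was 6 on the processed signal (with Car7), 6 with the replicate block (with Car4) and 7 with array weights (with both). Car4 was called without ChREBPβ WT replicate 1 or 8 or ChREBPβ KO replicate 2, and Car7 without ChREBPβ WT replicate 1 or 8 or total ChREBP KO replicate 7.

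For Car3 the mean over its probes differed by -0.37 in ChREBPβ KO, 1.21 in total ChREBP KO, 1.58 between the knockout effects and -0.49 between the wild types, which moved the value of the NM_007606 probe in all 4 comparisons, and with it the sign in ChREBPβ KO. The liver list mean as a covariate moved that probe to -0.28 between the wild types. Without single arrays the total ChREBP difference ran from 1.56 to 1.73 (A_55_P2934767), 1.47 to 1.66 (A_55_P2936152) and 0.34 to 0.44 (A_51_P431329). Cps1 between the wild types turned to 0.055 (limma adjusted p = 0.959) with the liver list mean as a covariate, of which it is a part. For the 38 differences of single probes that were refitted, which leave out most of those that were not called (all of Car2, Car4, Car7 and Gpr157 among them), 1337 values came from the other settings: 1 changed sign (Cps1), 77 lost a call and 10 gained one. Residuals over all probes showed no pairing by replicate number, a check that cannot exclude a shared factor for single genes. Whether the lost Car5b call under the replicate block reflects a weaker effect was therefore not settled. The block also took the calls of Slc4a4 in total ChREBP KO (0.80) and between the effects (1.33). Signal over background limits what can be said of Car6, Car5a and Car8. Over all probes, array quality weights called 48 in ChREBPβ KO, 5393 in total ChREBP KO and 2161 between the effects, against 0, 3564 and 1302, and without ChREBPβ KO replicate 4 the count in ChREBPβ KO was 80. The replicate block called 710 between the effects, and the liver list mean as a covariate called 2361 in total ChREBP KO and 3063 between the wild types, against 8912. A fit of each line on its own gives neither the difference between the effects nor that between the wild types.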
